A study of Mus musculus with 6 samples.

Results

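The SLAM receptor genes form a cluster on mouse chromosome 1, and open chromatin at 8 of them (Ly9, Slamf7, Cd48, Slamf1, Cd84, Slamf6, Slamf9 and Slamf8) was described in the thymus. Every ATAC-seq peak summit from 30 kb before to 30 kb after each gene was taken, extended by 250 bp on each side and merged across libraries, which gave 59 regions among 73702 in the whole data set. ATAC-seq uses a transposase to cut accessible DNA, so that a summit marks the point of strongest signal in an open region. The series asked which regions are open to a different degree in thymus of mice with dimeric p53 and of p53-null mice. In the p53 AD/- group (3 libraries) the mice had 1 copy of an allele named AD, which the series calls dimeric, and 1 null allele. In the p53 -/- group (3 libraries) both alleles were null. All mice carried these changes in the germline, were 4 weeks old and came from a mixed background of 50% BALB/C and 50% C57BL6, and both groups lack wild-type p53. The thymus was taken as a whole tissue. A region that is weaker in every cell and a region that is open in fewer cells, as when a cell type is rarer, therefore cannot be told apart. The labels do not say whether the libraries of a group are from separate mice, so p-values measure only the spread between these libraries.

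SLAM receptors are immunoglobulin-superfamily proteins on blood cells, and most of them bind a second copy of themselves on a neighbouring cell. CD48 is the exception: it is anchored to the membrane by a lipid and binds CD2 and the family member 2B4, the product of Cd244a. The tails of most members carry tyrosine switch motifs that recruit the adaptor SAP (Sh2d1a) and, through it, the kinase Fyn. In the thymus, contacts through Slamf1 and Slamf6 between CD4+CD8+ thymocytes are needed for the development of natural killer T cells. Slamf8 and Slamf9 lack the switch motifs and are known mainly from macrophages and dendritic cells.

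Promoter sequence was examined first, because 4 of the 7 members with an entry in the RefSeq promoter table (GRCm38.p6) had a summit of at least 1 library inside the 300-base window that runs from 250 bases before the start to 50 bases from it. These 4 windows are printed 5′ to 3′ on the gene's strand. Capitals mark ACAGGAAG (an ETS-type site) in Slamf1, CTTTGA (TCF/LEF type) in Slamf9 and the binding element of interferon regulatory factors (IRF) in Slamf8, each searched on both strands. Slamf1 lies on the plus strand at chr1:171766882-171767181, Slamf7 on the minus strand at chr1:171648950-171649249, Slamf9 on the plus strand at chr1:172475110-172475409 and Slamf8 on the minus strand at chr1:172590519-172590818.
Slamf1: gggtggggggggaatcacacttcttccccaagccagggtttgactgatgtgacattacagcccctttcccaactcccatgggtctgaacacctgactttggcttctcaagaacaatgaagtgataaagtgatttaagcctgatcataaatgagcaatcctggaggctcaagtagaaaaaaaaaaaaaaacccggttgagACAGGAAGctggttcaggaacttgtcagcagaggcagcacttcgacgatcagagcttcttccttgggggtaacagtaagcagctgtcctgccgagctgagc
Slamf7: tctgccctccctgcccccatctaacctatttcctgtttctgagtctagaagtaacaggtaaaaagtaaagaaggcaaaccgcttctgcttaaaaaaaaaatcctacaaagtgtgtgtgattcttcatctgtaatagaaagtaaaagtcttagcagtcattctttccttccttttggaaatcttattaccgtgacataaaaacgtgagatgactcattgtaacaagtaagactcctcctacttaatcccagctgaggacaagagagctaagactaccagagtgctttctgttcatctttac
Slamf9: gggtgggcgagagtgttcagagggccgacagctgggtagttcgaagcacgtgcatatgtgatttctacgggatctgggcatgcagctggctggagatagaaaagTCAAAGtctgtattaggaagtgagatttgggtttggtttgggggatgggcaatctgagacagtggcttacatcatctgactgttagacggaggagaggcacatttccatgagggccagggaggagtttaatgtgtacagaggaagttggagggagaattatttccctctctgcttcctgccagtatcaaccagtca
Slamf8: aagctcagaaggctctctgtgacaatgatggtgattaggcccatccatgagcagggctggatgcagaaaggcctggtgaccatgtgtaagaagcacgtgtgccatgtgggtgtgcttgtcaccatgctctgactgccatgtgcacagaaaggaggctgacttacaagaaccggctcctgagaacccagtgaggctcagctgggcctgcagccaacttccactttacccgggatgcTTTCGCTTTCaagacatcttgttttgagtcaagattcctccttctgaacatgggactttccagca

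The summits of the 6 libraries fell between bases 227 and 276 of the printed Slamf1 sequence, past the ETS-type match at bases 200 to 207. In Slamf9 they fell between bases 160 and 282, and 5 of the 6 lay between 160 and 173. In Slamf7 they were spread from base 115 to base 276, and the single Slamf8 summit, of AD/- library 2, lay at base 184. The matches are a description of letters and not of bound sites. ACAGGAAG was found in 1 of 7 member promoters (Slamf1) and in 3.26% of 21045 promoters of protein-coding genes. The IRF element was found in 1 of 7 (Slamf8) and in 3.38% of all promoters. CTTTGA was found in 2 of 7 (Cd48 and Slamf9; 14.4% of all), TGTGGT, a RUNX-type site, in 2 of 7 (Cd48 and Cd84; 14.8%) and CCGGAAGT, another ETS-type site, in 1 of 7 (Cd48; 5.20%). The E-box CANNTG was present in all 7 and in 69.0% of all promoters. No member window held AGATAA (bound by the GATA factors; 9.68% of all promoters), GGGCGG (the GC box, 46.7%), TATAAA (12.7%) or the p53 decamer (7.37%).

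The member promoters were poor in CpG dinucleotides. The ratio of observed to expected CpG was 0.270 in Slamf7, 0.417 in Cd48, 0.223 in Slamf1, 0.184 in Cd84, 0.0571 in Slamf6, 0.360 in Slamf9 and 0.195 in Slamf8, beside a median of 0.574 over all promoters. Of the 7 members, 6 lay under 0.4. Among the 8173 promoters under 0.4 in the genome, 22.4% had a summit at the start in all 6 libraries, beside 81.1% of the other promoters.

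The 8 genes lie in 4 stretches once their 30 kb flanks are joined. Ly9, Slamf7 and Cd48 share chr1:171558613-171735258, with 18 regions, 10 of them shared by all 6 libraries. Slamf1, Cd84 and Slamf6 share chr1:171737131-171978958, with 33 regions and 20 in all 6 libraries. Only 1.87 kb separates these stretches. Slamf9 (chr1:172428569-172508421) and Slamf8 (chr1:172551377-172620873) lie apart, the body of Slamf9 being 510 kb from that of Slamf6, and had 5 and 3 regions, with 5 and 1 shared by all 6 libraries. From Ly9 to Slamf6, regions of all 6 libraries lay at 7.14 per 100 kb, and 1.97% of tiles of the same length on chromosomes 1 to 19 and X held as many or more. The Slamf9 stretch had 6.26 per 100 kb (8.52% of tiles as many or more) and the Slamf8 stretch 1.44 (35.8% of tiles). These densities are a description, since genes are not spread evenly over tiles.

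**Figure D1:**
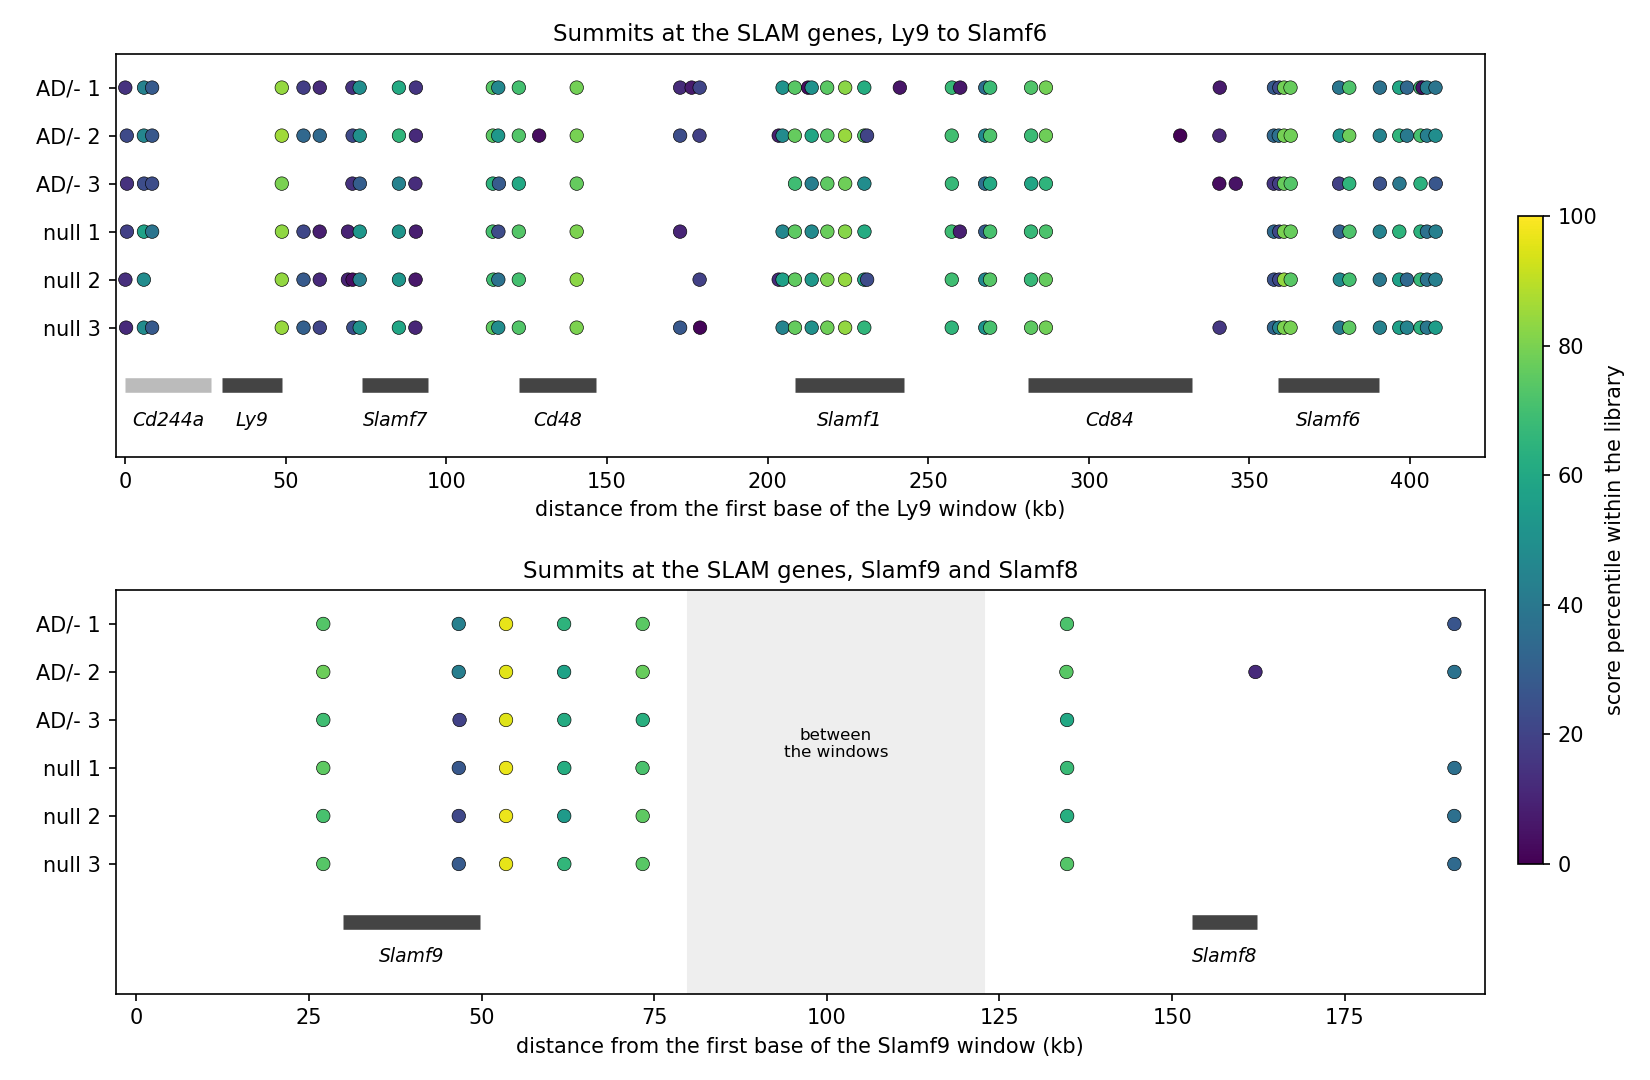
Summits of the 6 libraries at the SLAM genes. Each point is 1 library's best summit in a region (x axis, distance in kb from the first base of the Ly9 or Slamf9 window; y axis, library, with null for p53 -/-), its colour is the score percentile within the library, bars are gene bodies, and the 2 panels have different scales. Most columns of points run through all 6 libraries, and a stretch of 71.0 kb over Cd84 holds only scattered, dark points.

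Each region was described by its score percentile within a library (100 at the top), because scores rise with depth and read depth is unknown. This percentile can still shift with the number of summits in a library's list. Of the 59 SLAM regions, 36 (61.02%) had a summit in all 6 libraries, beside 38374 of 73702 (52.1%) over the whole data set. A further 7 (11.9%) were found in 5 libraries, 4 (6.78%) in 4, none in 3, 4 (6.78%) in 2 and 8 (13.6%) in 1. Of the 36, 17 lay inside a member's body and 19 outside. Only 9 of the 36 (25%) lay within 1 kb of any protein-coding start, beside 28.8% of all regions of 6 libraries. Shared rank is the percentile among the regions that every library has, so that each library ranks the same set. The other 27 had a median shared rank of 53.1, beside 37.9 for the 27317 regions away from starts.

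**Figure D2:**
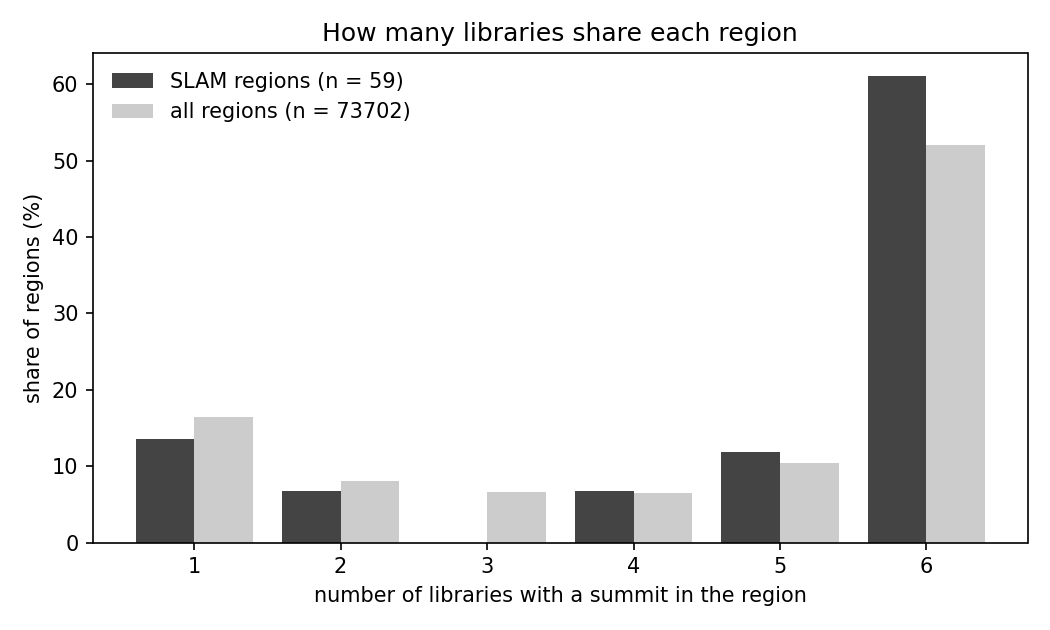
Share of regions (y axis, %) by the number of libraries with a summit in the region (x axis), for the 59 SLAM regions (dark bars) and all 73702 regions (light bars). The bars for 6 libraries stand at 61.02% and 52.1%, and no SLAM region was found in exactly 3 libraries.

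The labelled tissue was checked against its markers. All 12 thymocyte markers (among them Cd3e, Cd4, Cd8a, Rag1 and Ptcra) had a summit within 1 kb of the start in every library. The share over all protein-coding genes was 54.3%. Of 6 B cell markers, 2 (Cd79b and Ebf1) had one in every library while Cd79a, Ms4a1 and Pax5 had none. Of 7 myeloid and dendritic cell markers, 3 had a summit in each library except AD/- library 3, which had 1, and Csf1r, Lyz2, Itgax and Siglech had none. Of 4 natural killer cell markers, 0 or 1 had a summit in a library. Among 7 markers of thymic epithelium 3 were marked in each library, among 4 of endothelium 1 or 2, and among 4 of erythroid cells 2. The summit lists held 44496 to 60160 summits, with AD/- library 3 the shortest at 44496.

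The region nearest the start was shared by all 6 libraries at 7 members, and its percentile within the library fell into steps. The steps below Ly9 and below Cd84 also held in shared rank, but the others depended on the scale. In shared rank Slamf7 (0.438 to 6.57) overlapped Slamf6 (4.96 to 20.8) and Slamf9 (5.23 to 23.2). Slamf1 (63.1 to 65.2) there lay above Cd48 (54.3 to 62.7) and Cd84 (50.6 to 62.9). A start region is the region whose summit lies nearest the annotated start and within 1 kb of it, except that for Ly9, which has no entry in the promoter table, both annotated ends were used. Among 21631 protein-coding genes, 54.3% had a summit at the start in all 6 libraries and 39.6% in none. These shares need a summit within 1 kb in each library. Counted so, Cd84 had one in 5 libraries, Slamf8 in 1 and each of the other members in 6. The number of members with such a summit was 7, 8 and 6 in the AD/- libraries and 7, 7 and 7 in the null libraries (7 ± 1 and 7 ± 0, SD, n = 3 each; exact two-sided permutation test, p = 1).

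Ly9 encodes CD229, a homophilic receptor that restrains innate-like T cells in mice. It occupies chr1:171588613-171607410, and its start region at position 171607380, 30 bp from the end of the body, reached percentiles of 84.0, 85.6 and 79.9 in AD/- libraries 1, 2 and 3 and 83.3, 83.7 and 84.8 in the null libraries (83.6 ± 1.97, SD, n = 6). It was the strongest start of the cluster in every library. Slamf1, whose product CD150 gave the family its name, occupies chr1:171767131-171801184. Its start region at 171767140, 8 bp from the start, stood at 74.1, 76.2 and 68.9 in AD/- and 75.1, 75.7 and 76.3 in null libraries (74.4 ± 2.80, SD, n = 6). The Ly9 start exceeded the Slamf1 start by 9.16 ± 1.16 percentile points (SD, n = 6), higher in 6 of 6 libraries, and their ranges did not overlap.

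Cd48 occupies chr1:171681245-171705258. The nearest region, at 171681177, lay 815 bp from the start and 68 bp before the gene body, and its 6 summits fell within 1 bp of each other. It stood at 70.2, 72.8 and 60.0 in AD/- and 73.3, 70.2 and 72.8 in null libraries (69.9 ± 5.02, SD, n = 6). Cd84, a homophilic receptor of lymphocytes and platelets, occupies chr1:171839697-171890718. The region at 171840653, inside the gene and 956 bp from its start, stood at 72.4, 68.1 and 59.0 in AD/- and 67.2, 67.2 and 75.2 in null libraries (68.2 ± 5.56, SD, n = 6). In AD/- library 3 the Cd84 summit lay 1001 bp away, so that this library fell short of the 1 kb limit. Slamf1, Cd48 and Cd84 overlapped in their percentile ranges: Slamf1 was above Cd48 in 6 of 6 libraries and Cd48 above Cd84 in 4 of 6.

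The next step was wide: the Cd84 region exceeded the Slamf9 start by 37.7 ± 8.50 percentile points (SD, n = 6) with no overlap. Slamf9 occupies chr1:172458569-172478421 on the plus strand, and the start used, 172475360, lies inside that body and not at its first base. The Slamf9 start region at 172475279, 81 bp from the start used, stood at 43.3, 42.2 and 19.8 in AD/- and 27.1, 21.9 and 28.4 in null libraries (30.5 ± 10.1, SD, n = 6). AD/- libraries 1 and 2 were above the other 4. Slamf6, the receptor Ly108, occupies chr1:171917458-171948958. Its start region at 171917895, 433 bp from the start, stood at 22.7, 36.5 and 17.6 in AD/- and 21.2, 21.3 and 45.1 in null libraries (27.4 ± 10.9, SD, n = 6). The highest Slamf6 values were in AD/- library 2 and null library 3, which have the longest summit lists (60160 and 58019). AD/- library 3, with the shortest list, was lowest at the starts of Ly9, Slamf1, Cd48, Cd84, Slamf9 and Slamf6. In shared rank it was lowest only at Cd48 among these. The part of list length in these values and their SDs was not tested. Slamf9 and Slamf6 overlapped.

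Slamf7, a receptor of natural killer and plasma cells, occupies chr1:171632403-171653037. Its start region at 171649084, 85 bp from the start, was weak in every library, at 15.6, 12.0 and 12.9 in AD/- and 8.54, 6.28 and 10.6 in null libraries (10.97 ± 3.28, SD, n = 6). The AD/- libraries were all above the null libraries on this scale, but not in shared rank, where the groups overlapped. No share over all regions is given for this scale, so the separation has no background beside it. Slamf8 occupies chr1:172581377-172590873 and had a start summit in AD/- library 2 alone, at a percentile of 12.0 and 67 bp from the start. Beside the members, the start of Cd244a, the family gene next to Ly9, had a summit in all 6 libraries at percentiles of 12.1 to 22.4. In the shared rank of the start region (its percentile among regions that every library has) over the 6 libraries, the genes outside the cluster most like Ly9 among 10602 were Tgfbr2, Rps6kl1 and Traf6, with mean absolute differences of 0.281, 0.482 and 0.567 percentile points.

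**Figure D3:**
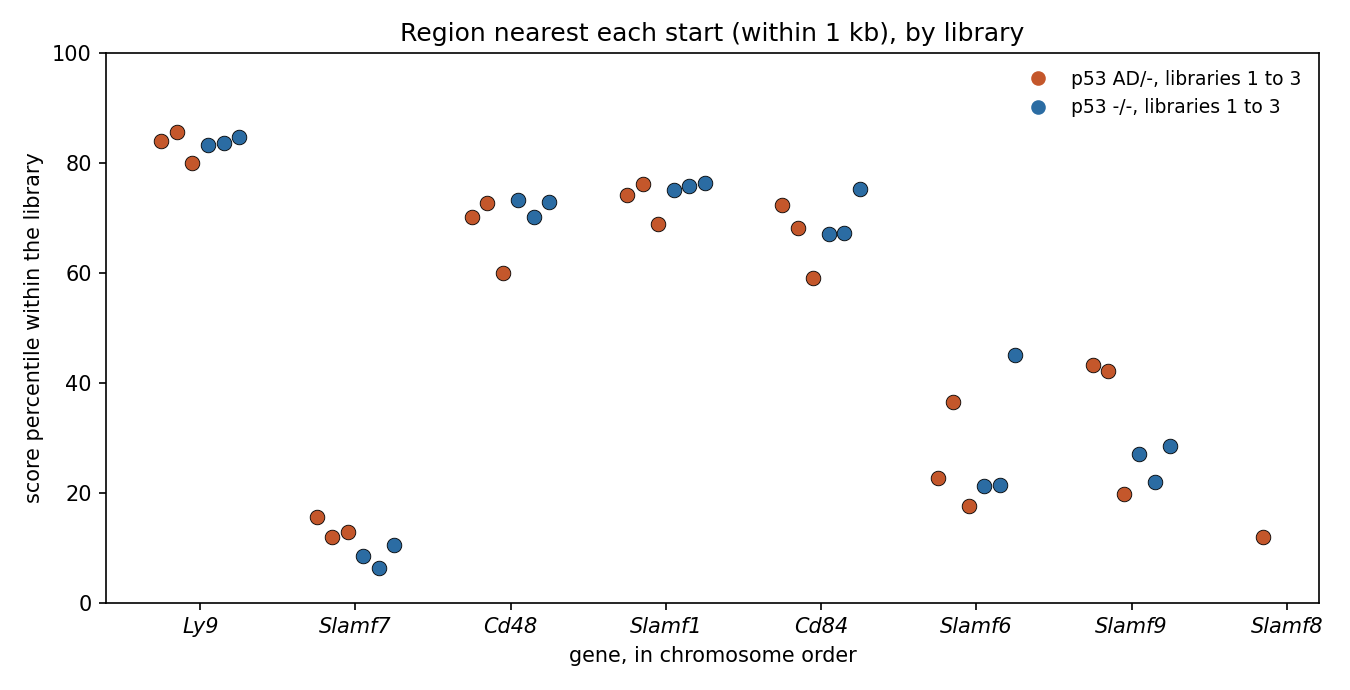
Score percentile within the library (y axis) of the start region of each SLAM gene (x axis), with 1 point per library, coloured by genotype. Ly9 lies at 79.9 to 85.6, Slamf1, Cd48 and Cd84 at 59.0 to 76.3, Slamf9 and Slamf6 at 17.6 to 45.1, Slamf7 at 6.28 to 15.6, and Slamf8 has a single point at 12.0.

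The start was not the strongest open region for most members. Inside Slamf1, a region at 171782750, 15618 bp into the gene, stood at 77.9 to 84.5, and another at 171777223 stood at 74.5 to 80.5. Slamf1 held 5 regions of all 6 libraries in its body, and only 1.71% of 2802 genes of like length (within 25%) held as many or more. Slamf6 also held 5 (1.45% of 2891 genes of like length). The median gene of like length held 1 in both cases. At Slamf6, 4 regions of all 6 libraries lay within 5.23 kb around the start. The strongest of them, at 171919412 and 1950 bp into the gene, stood at 78.9, 79.0 and 76.7 in AD/- and 79.8, 83.8 and 80.2 in null libraries, far above the start region itself.

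Cd48 was marked most strongly at 171699191 inside its body (76.2 to 82.5), and its body held 1 region of all 6 libraries, as did those of Ly9 and Slamf9. Slamf7 and Cd84 held 2 each and Slamf8 none. Of genes of like length, 57.4% held as many or more as Cd48, 53.9% as Ly9, 54.7% as Slamf9, 19.5% as Slamf7 and 33.5% as Cd84. Cd84 was open near its start, where a further region at 171845265 stood at 64.9 to 78.6, and was then followed by the longest stretch without a region of all 6 libraries, 71.0 kb up to 171916250, in which 3 weaker regions lay. The next longest ran for 67.9 kb from 171699191 in Cd48 to the Slamf1 start. The median gap was 6.06 kb.

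The strongest regions in the windows of 4 members lay in other genes. For Slamf7 it was the Ly9 start, 25023 bp outside its body, and for Cd84 the region at 171919412 inside Slamf6, 28694 bp outside. Those of Slamf9 and Slamf8 lay in genes that are not members. The region at 172482121 lies inside Igsf9, at its start, and stood at 95.2 to 97.1, above every other region of the cluster. The region at 172563357 lies inside Vsig8 and stood at 59.8 to 73.9. The windows have no natural edge: the outermost region at the Ly9 side, at 171559020, lay 407 bp inside and was found in 6 libraries (median percentile 14.5), and the nearest region beyond that edge lay 4471 bp outside and was found in 2 (12.6). Beyond Slamf6 the outermost region lay 12399 bp inside (6 libraries, 43.1) and the next 4812 bp outside (5 libraries, 21.9). Before Slamf8 a region of 6 libraries (49.9) lay 653 bp outside.

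No SLAM region had summits in all 3 libraries of 1 genotype and in none of the other. Of the 59, 0 had summits in every AD/- library without any in a null library, beside 0.179% of all regions, and 0 the reverse, beside 0.418%. Without null library 3 the number was 2, and it was 0 without each of the other libraries in turn. These 2 are the weak regions at 171627980 and 171899305 described below. The share over all regions was not computed with a library left out, so the 2 have no background beside them. A single region cannot pass a test in this design, since Fisher's exact test of 3 against 3 gives at best p = 0.1. Under the looser rule of 2 or more libraries against none, 0 SLAM regions were found in AD/- (1.51% of all regions) and 1 in null (2.37%). This region, at 171627980 between Ly9 and Slamf7, had weak summits in null libraries 1 and 2, at percentiles of 9.67 and 9.84. The region at 171899305 between Cd84 and Slamf6 had summits in AD/- libraries 1, 2 and 3 at 7.33, 10.6 and 3.16 and in null library 3 at 16.4. Of the 7 regions of 5 libraries, 5 were missing in AD/- library 3, which has the shortest list, and the other 2 in null libraries 1 and 2.

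The 36 regions of all 6 libraries were compared in shared rank. Every AD/- library was above every null library at 2 of them (5.05% of all 38374 regions), and every null library above every AD/- library at 2 (4.65%). Both counts are near the background. With 1 library left out, the sum of these counts went from 4 to between 6 (without AD/- library 1 or null library 1) and 11 (without null library 3). Smaller groups separate more easily. The share over all regions was not computed with a library left out, so this rise has no background beside it and is not a result about SLAM regions. With limma on the shared ranks, no region of the 38374 passed a Benjamini-Hochberg adjusted p of 0.05 in either direction (0% and 0%), and the lowest adjusted p among SLAM regions was 0.82. At an unadjusted limma p under 0.05 there were 2 of 36 SLAM regions, beside 5.44% of all. After adjustment over all regions, every p of the exact permutation test was 1. The median difference, AD/- minus null, was 0.06 percentile points over SLAM regions and -0.02 over all regions, and 19 SLAM regions were higher in AD/- and 17 in null.

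Of the 4 regions whose groups did not overlap, the Slamf9 start had the largest difference. Its shared ranks were 23.2, 16.1 and 12.2 in AD/- and 9.83, 5.23 and 6.71 in null libraries, a difference of 9.90 (17.2 ± 5.60 and 7.26 ± 2.35, SD, n = 3 each; limma adjusted p = 0.82). The difference was 15.13 without AD/- library 3 and ran from 7.03 to 11.35 without each of the others. The percentiles within whole libraries given above did overlap at this region. Endothelial markers with a start summit numbered 2 of 4 in AD/- libraries 1 and 2 and 1 of 4 in the others, with 2 of the 4 marked in none. Only Sox18 differed between libraries, with weak summits at percentiles of 4.90 to 7.33, while Kdr was marked in all 6. Myeloid and dendritic markers numbered 3 of 7, or 1 of 7 in AD/- library 3. The part of these cell types in the Slamf9 values was not tested.

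The region at 171961886, beyond the end of Slamf6, had shared ranks of 56.1, 54.4 and 58.8 in AD/- and 50.5, 52.98 and 45.9 in null libraries, a difference of 6.64 (56.4 ± 2.20 and 49.8 ± 3.60, SD, n = 3 each; limma adjusted p = 0.84). The other 2 were higher in null. The Slamf1 start had shared ranks of 63.5, 63.1 and 64.4 in AD/- and 65.2, 65.2 and 64.5 in null libraries, a difference of -1.27, and the region at 171949216, beside the end of Slamf6, differed by -3.86, or by -1.89 without null library 1. With all 6 libraries, the difference of largest size among the 36 regions was in the opposite direction to that at Slamf9, and its groups overlapped. A region at 171564457 inside Cd244a had shared ranks of 24.6, 19.99 and 15.3 in AD/- and 41.6, 28.0 and 24.5 in null libraries, a difference of -11.4 (limma adjusted p = 0.943). It was -6.29 without null library 1, -8.69 without AD/- library 3, -13.74 without AD/- library 1 and -14.82 without null library 3. In the ranks just given, leaving out AD/- library 1 or null library 3 ends the overlap. Between Slamf7 and Cd48, a region at 171674780 had 26.9, 28.5 and 20.04 in AD/- and 7.25, 16.6 and 25.1 in null libraries, a difference of 8.86 that also overlapped (limma adjusted p = 0.969). That difference was 4.28 without null library 1, 12.77 without AD/- library 3 and 13.31 without null library 3. In these ranks, leaving out AD/- library 3 or null library 3 ends the overlap.

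**Figure D4:**
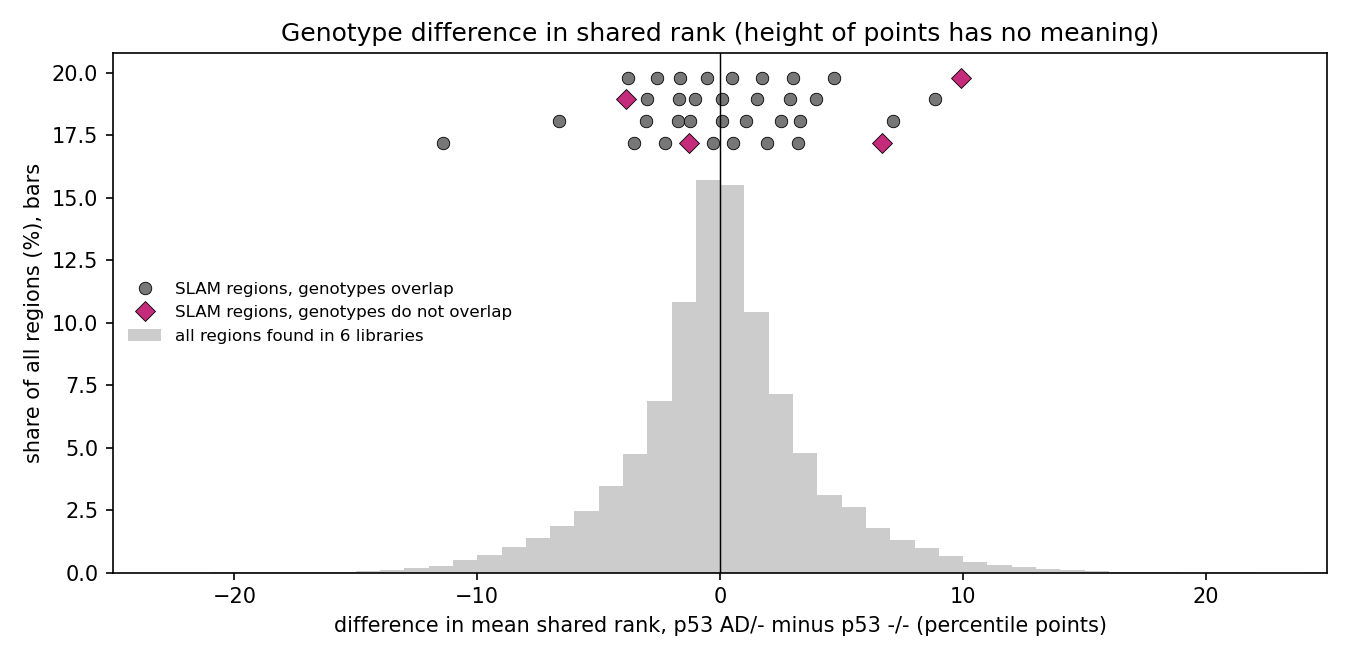
Difference in mean shared rank between genotypes (x axis, p53 AD/- minus p53 -/-, percentile points) for the 36 SLAM regions of all 6 libraries (points, whose height has no meaning; diamonds where the 3 and 3 libraries do not overlap) and for all 38374 such regions (bars, y axis, % of regions). The SLAM regions run from -11.4 to 9.90, and the middle 90% of all regions from -6.61 to 6.57.

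The number of SLAM regions per library was 52, 52 and 40 in AD/- and 45, 47 and 47 in null (48 ± 6.93 and 46.3 ± 1.15, SD, n = 3 each; exact two-sided permutation test, p = 1). The difference of 1.67 regions became 5.67 without AD/- library 3 and -0.333 without AD/- library 1 or 2. As a share of the library's own regions the values were 0.0955%, 0.0867% and 0.0902% in AD/- and 0.0834%, 0.0846% and 0.0813% in null. Here the groups did not overlap (exact two-sided permutation test, p = 0.1, the smallest that 3 against 3 allows); this measure was added after the data were seen. All 8 regions found in a single library were of AD/- libraries (4, 3 and 1), at percentiles of 0.428 to 12.0, beside 51.8% of the 12104 single-library regions of the data set. Without the single-library regions the shares overlapped (exact permutation p = 0.2), and with lists cut to equal length the difference turned to -0.00068 percentage points (exact permutation p = 1).

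The genes that act with the receptors were taken as lists. Over all protein-coding genes, 54.3% had a start summit in all 6 libraries, and the count of adaptors and kinases is near that share. Of 7 adaptors and kinases, 4 had a start summit in all 6 libraries: Sh2d1a, encoding SAP (59.9 to 75.7), Fyn (89.7 to 93.7), Lyn (29.0 to 50.8) and Fgr (30.1 to 50.6). Lyn and Fgr are Src-family kinases. Sh2d1b1 and Sh2d1b2, the EAT-2 family adaptors of natural killer cells, had one in none. All 9 phosphatases and other binders were marked in all 6, from the phosphatase Ptpn6 (6.17 to 29.1) to the kinase subunit Pik3r1 (95.9 to 98.6). Of 8 transcription factors of innate-like T cells, 7 were marked in all 6, among them Zbtb16, encoding PLZF (31.5 to 49.0), and Egr2 (85.8 to 90.1). Gata3 was marked in 3, at percentiles of 74.2 to 74.5. How far its nearest summit lay from the start in the other libraries was not examined. Cd2, encoding a partner of CD48, stood at 85.2 to 90.7.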

How the data were processed

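ATAC-seq summits of 6 thymus libraries were analysed, grouped by the genotype label. The authors deposited 1 summit list per library, with a score read as the -log10 of the q-value, since the lowest scores lie near 1.30, the value of q = 0.05. The submitters' processing notes list MACS2 2.1.2, Picard 2.9.0, Bowtie2 2.3.4.2 and Trim Galore 0.4.5 and give GRCm38 as the build. Their settings, transposase-cut shifting, duplicate removal and masking are not given in the sources used here. Read depth is unknown, and summits per library range from 44496 to 60160.

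The autosomes and X were used, with each summit widened by 250 bp per side and overlapping windows merged (Python 3.11.15, pandas 2.3.3). Gene bodies came from a RefSeq table on GRCm38, and start sites from the RefSeq promoter table. Genotypes were compared by presence, by exact permutation over 20 relabellings (coded in Python, smallest p 0.1) and by limma 3.58.1 (R 4.3.3). Limma was run over all regions of 6 libraries, and the tests of single regions had Benjamini-Hochberg adjustment. Fisher's exact test was taken from SciPy 1.17.1. The region calls and the limma fit were tried on planted regions and planted rank shifts of 20 points. No SLAM region differed by that much, so the trial does not show whether smaller differences would be found. Alternatives were other extensions, flanks, score minimums, start distances and call rules, lists of equal length and each library left out. The rule for names takes all members with Cd244a, each member's start region and strongest region, regions of 1 genotype (also 2 or more against 0), the 3 largest differences in shared rank and the 3 genes most like the strongest start. Other regions named were chosen after their values were seen. Members and lists were chosen with earlier results of these data known. A genome sequence and protein sequences were not used here, so motifs were searched in promoter windows only. Some genes of the lists are not reported here.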

Additional observations from a re-analysis of the deposited data

How the results depend on the processing

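Of 138 alternative values, 125 kept their direction or, for counts, stayed within 1.5 times (members with a start summit, within 1). The 6 single regions followed in shared rank kept their direction under all of theirs, though not always their size or whether their groups overlapped. These 6 gave 10 values each and were chosen from the same data, for large differences or groups that did not overlap. Where the groups did not overlap, leaving out a library could hardly turn the direction, so those values test little. A stricter rule for regions of 1 genotype could only remove regions, and it started from 0. The 125 include all of these values, so they are not a measure of how firm the results are. The number of SLAM regions per library, AD/- minus null, was 1.67 and turned to -1 with a score of at least 5, to -0.333 with lists of equal length and to -1 without regions of a single library, and ran from -0.333 to 5.67 with each library left out (5.67 without AD/- library 3). The difference in share turned to -0.00068 percentage points with lists of equal length. Regions of 1 genotype only numbered 0, but 1 under the rule of 2 or more against none and 0 to 2 with each library left out (2 without null library 3). Regions with non-overlapping shared ranks numbered 4, but 0 by limma and 6 to 11 with each library left out (11 without null library 3). Smaller groups separate more easily, and for both kinds of region the share over all regions was not computed with a library left out. No paired analysis was possible because the labels give no replicate numbers, and those used here follow accession order. Read depth is unknown, so a region without a summit may lie under the peak caller's limit, and weak regions (percentiles under about 25) are the least certain.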
